A study of Homo sapiens with 29 samples.

Results

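The keratin gene clusters are the stretches of chromosomes 12 and 17 that hold nearly all genes for the intermediate filament proteins of epithelial cells. They were examined here through the open chromatin of 22Rv1 cells, a human prostate carcinoma cell line, measured by ATAC-seq, an assay whose transposase cuts accessible DNA so that reads pile up into peaks. The members are the peaks that overlap the type II cluster, chr12:52550000-53360000, or the type I cluster, chr17:38800000-39800000 (build hg19), merged over all libraries into accessible regions. The clusters held 159 such regions, 96 in the type II and 63 in the type I cluster, of 166696 in the genome. The bounds were given by position and used no measured value.

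The study compared the covalent FOXA1 ligand WX-02-23, its inactive stereoisomer WX-02-43 and a splicing inhibitor in 29 libraries, each with its own peak list. Parental 22Rv1 cells were treated for 3 h with 0.1% DMSO (the vehicle), with the stereoprobe WX-02-23 or the stereoprobe WX-02-43 at 20 µM, or with PladB at 10 nM or 100 nM, in 3 libraries per group. PladB is pladienolide B, which blocks the splicing factor complex that contains PHF5A. Engineered 22Rv1 cells all expressed Y36C-PHF5A and carried a doxycycline-inducible FOXA1, either wild type (WT-FOXA1) or with a cysteine replaced by alanine (C258A-FOXA1). With doxycycline (Dox), each engineered line received DMSO, WX-02-23 at 20 µM or PladB at 100 nM, in 2 libraries per group, and the WT-FOXA1 line had 2 further DMSO libraries without Dox. The labels name no removal of the cells' own FOXA1, and do not say whether an engineered line is 1 clone or whether replicates came from separate cultures, so each p-value measures only the spread between these libraries. WX-02-43 and PladB at 10 nM were applied to parental cells only. No C258A-FOXA1 library without Dox was analysed here.

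Keratins form filaments as pairs of a type I and a type II protein. The pair KRT8 and KRT18 marks the luminal cells of the prostate gland, whereas KRT5 and KRT14 mark its basal cells. KRT19, a keratin of simple epithelium, was classed with the luminal keratins here and is not a marker of luminal cells alone. Other members of the clusters serve stratified skin (KRT1, KRT2, KRT10), wounded or stressed epithelium (KRT6A, KRT16, KRT17), and hair and its root sheath (KRT31 to KRT36, KRT71 to KRT75, KRT81 to KRT86). KRT18, a type I keratin, is the exception in position, since it lies beside KRT8 in the type II cluster. FOXA1 is a forkhead transcription factor of luminal prostate cells that can bind DNA in closed chromatin.

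Of the 54 keratin genes listed for the clusters, 34 had an entry among the RefSeq promoters (GRCh38.p14, 250 bases before to 50 after a gene start). Of the 6 genes chosen to show the luminal to basal contrast (KRT8, KRT18, KRT19, KRT5, KRT14 and KRT7), KRT8 and KRT5 were present, and their promoters are printed 5′ to 3′ to set a luminal beside a basal keratin. Capitals mark a match to the forkhead letters TGTTTAC or TGTTTGC, searched on both strands. KRT8 lies at chr12:52926420-52926719 and KRT5 at chr12:52520345-52520644, both on the minus strand of GRCh38.p14. This KRT8 entry is the only start listed for the gene. Whether it is the main start of KRT8 was not checked.
KRT8: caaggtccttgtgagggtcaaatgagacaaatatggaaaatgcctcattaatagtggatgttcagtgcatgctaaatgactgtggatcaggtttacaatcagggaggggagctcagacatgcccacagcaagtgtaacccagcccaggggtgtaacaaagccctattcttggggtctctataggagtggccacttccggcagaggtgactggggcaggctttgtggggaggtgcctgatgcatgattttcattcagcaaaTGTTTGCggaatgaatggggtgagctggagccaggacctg
KRT5: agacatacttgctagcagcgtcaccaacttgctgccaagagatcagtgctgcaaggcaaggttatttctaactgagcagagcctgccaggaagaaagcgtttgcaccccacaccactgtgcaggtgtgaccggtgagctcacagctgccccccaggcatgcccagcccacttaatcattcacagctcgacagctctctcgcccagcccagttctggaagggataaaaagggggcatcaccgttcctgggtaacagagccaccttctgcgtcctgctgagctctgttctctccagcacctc
The KRT8 promoter printed here held 1 forkhead match, 2 CpG dinucleotides and 50.7% G and C. The KRT5 promoter held 0 forkhead matches, 7 CpG dinucleotides and 56.3% G and C. Over the 34 genes, 4 held a forkhead match (KRT8, KRT24, KRT27 and KRT40), that is 4 of 38 promoters, and 7.17% of all 35116 promoters in the table held it. The AP-1 letters TGANTCA, searched on both strands, were in 0 of the 38 keratin promoters and in 7.71% of all promoters. A match describes these letters only. The peaks are in hg19 and the promoters in GRCh38, so no peak could be placed on them.

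The sharing of keratin regions between libraries was set beside that of all regions, without a test. A peak in all 29 libraries was found at 43 of the 159 keratin regions (27%), against 21.5% of all regions in the genome. All 15 parental libraries held 66 of them (41.5%, against 32.6%), and 23 were seen in 1 library only (14.5%, against 16.9%). Only 6 keratin regions had no peak in any parental library (3.77%, against 18.5%), and 0 were held by all 15 parental and 0 engineered libraries (against 0.614%). The keratin regions had a median width of 381 bp, and those held by all 29 libraries 606 bp, compared with 765 bp for all regions held by 29. The regions held by 1 library had a median width of 151 bp, near the narrowest width in the lists, 150 bp.

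Peaks lay most densely at the luminal keratins and were sparse around KRT5, among the type I hair keratins and in other parts of the type I cluster. Each cluster was divided into windows named for the keratin genes they span, and a library's peaks in a window were counted per 100 kb. The window bounds come from general knowledge of the gene positions and were not checked against an hg19 annotation, and the windows also hold DNA and genes other than keratins. In the 3 parental DMSO libraries the luminal windows together (KRT8 and KRT18, and KRT19) held 20.9 ± 0.696 peaks per 100 kb (SD, n = 3). Taken singly, the KRT8 and KRT18 window held 16.1 ± 1.79 and the KRT19 window 30.9 ± 2.14. The basal windows (KRT75 to KRT5, and KRT9 to KRT17) held 4.50 ± 0.537, and the hair windows (KRT81 to KRT82, and KRT33A to KRT36) held 6.12 ± 0.379. The basal windows were so classed for KRT5 and KRT14 but also span other keratins, among them KRT75, KRT6A, KRT16 and KRT17. Their density is thus not that of basal keratins alone. Luminal exceeded basal by 16.4 ± 0.159 and hair by 14.8 ± 0.944 peaks per 100 kb. The luminal windows were the shorter ones, 56 and 27 kb, beside 120 and 95 kb for basal and 145 and 160 kb for hair. Whether window length bears on the contrast was not tested. The window of KRT13 and KRT15 mixes a suprabasal with a basal keratin and was in neither class. Counted as basal, a choice made after seeing the data, it raised the basal density to 5.21 ± 0.475 and left luminal higher by 15.7 ± 0.220. The luminal density was above both others in 15 of 15 parental and 14 of 14 engineered libraries, and above basal in the same numbers with that window counted. Windows are not replicates, so this order is a description and carries no test.

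**Figure D1:**
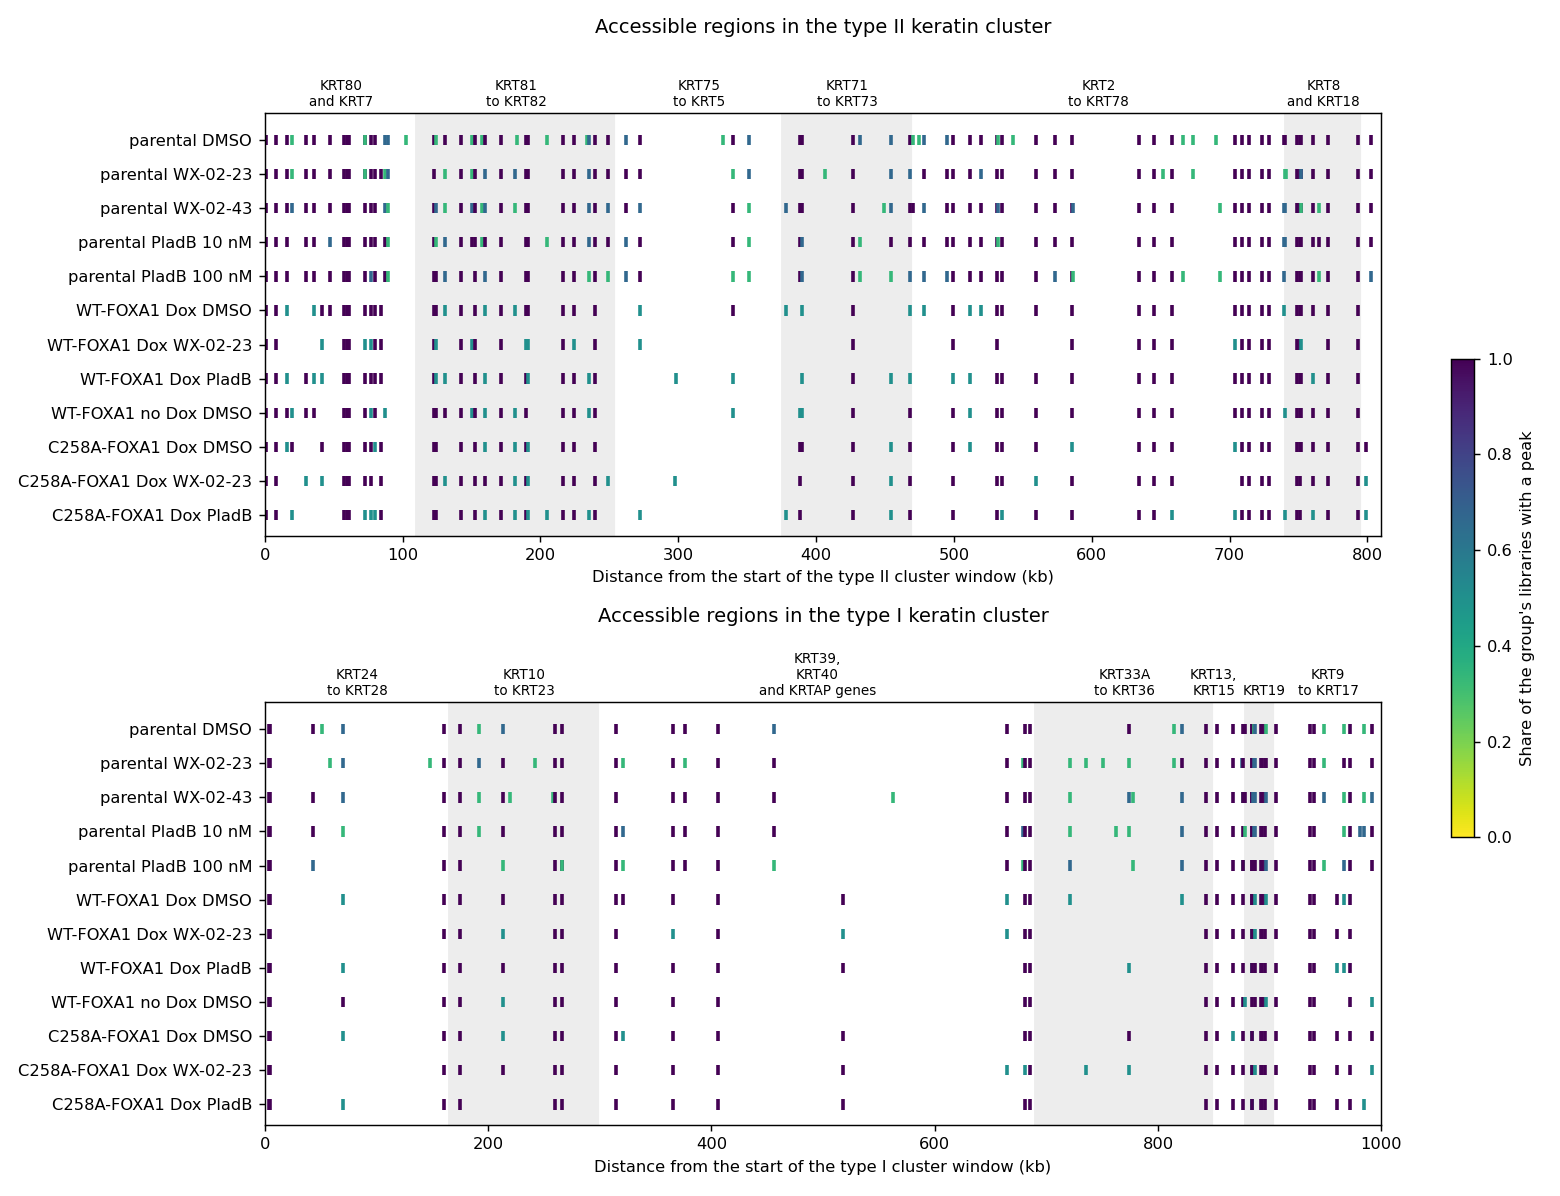
Accessible regions along the type II cluster (top) and the type I cluster (bottom), placed by distance from the cluster's start in kb, for the 12 groups of libraries; the colour of each tick gives the share of the group's libraries with a peak, and alternate windows are shaded. In each of the KRT8 and KRT18 and the KRT19 windows 4 of 10 regions are held by every library, while the window from KRT75 to KRT5 is nearly empty in the engineered groups.

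The KRT8 and KRT18 window, at the end of the type II cluster, held 10 regions, of which 4 were held by all 29 libraries. These 4 were chr12:53298233-53299216, chr12:53300768-53301376, chr12:53320931-53321685 and chr12:53342552-53344116. The last, 1565 bp wide, was the widest keratin region and the strongest by rank. Its fold enrichment over local background, a value of the authors' peak caller, ran from 8.47 to 11.6 in parental libraries (median 10.8) and from 9.79 to 11.7 in engineered libraries (median 11.1). Ranked by the authors' p-value within each list, it stood at the 94.1 to 98.8 percentile in parental and at the 87.1 to 94.9 percentile in engineered lists. Window density was 16.2 ± 1.96 in the parental (n = 15) and 12.8 ± 2.20 in the engineered libraries (n = 14).

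KRT19, a type I keratin of simple epithelium, lay in the densest window of either cluster. It held 10 regions, 4 of them in all 29 libraries, and 30.4 ± 5.46 peaks per 100 kb in parental libraries against 19.8 ± 4.50 in engineered ones. Its leading region, chr17:39684393-39684872, had a fold enrichment of 5.55 to 8.86 in the parental and 5.78 to 11.6 in the engineered libraries. It stood at the 69.4 to 86.2 percentile in parental lists, below the leading region at KRT8 and KRT18. The window spans only 27 kb, so 1 peak shifts its density by several units.

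The basal keratins differed between the clusters. In the type II cluster the window from KRT75 to KRT5, which includes KRT6A, held 7 regions and none in all 29 libraries. Parental libraries had 2 to 4 peaks there (2.50 ± 0.630 per 100 kb) and engineered libraries 0 to 2 (0.536 ± 0.621). Its leading region, chr12:52821962-52822283, was held by 17 libraries, 14 parental and 3 engineered. The longest stretch of the type II cluster without a region held by all 29 libraries, 187 kb from 52790011 to 52976625, spans this window. In the type I cluster the window from KRT9 to KRT17, which includes KRT14 and KRT16, held 10 regions, 4 of them in all 29 libraries. There chr17:39735721-39736348 stood at the 81.4 to 90.7 percentile in parental and the 85.0 to 93.8 percentile in engineered lists, with folds of 9.28 to 12.2 and 11.5 to 15.3. Of the basal windows, the one with KRT14 thus held strong regions in every library and the one with KRT5 held none.

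By mean parental and mean engineered density, no other window was as dense as those of KRT8 with KRT18 and of KRT19. The order was not the same in every group. In the WT-FOXA1 line with Dox and WX-02-23, the KRT13 and KRT15 window held 10.7 peaks per 100 kb and KRT8 with KRT18 held 9.82 (means, n = 2). KRT80 and KRT7, a simple epithelial keratin, shared a window with 19 regions, 5 of them held by all 29 libraries, at 13.3 ± 1.41 peaks per 100 kb in parental and 9.29 ± 1.56 in engineered libraries. The hair keratins differed by cluster. KRT81 to KRT82 held 20 regions, 6 of them in all libraries, and a parental density of 10.2 ± 1.67, whereas KRT33A to KRT36 held 9, 1 of them in all libraries, and 1.88 ± 0.472. The suprabasal window from KRT2 to KRT78 held 28 regions, 7 of them in all libraries. KRT13, a suprabasal keratin, and KRT15, a basal one, shared a window of 28 kb with 5 regions, 2 of them in all libraries, at 12.1 ± 2.26 peaks per 100 kb in parental and 10.5 ± 0.955 in engineered libraries. That density was nearer to KRT8 and KRT18 than to the windows counted as basal. The root sheath keratins KRT71 to KRT73 had 10 regions, 1 of them in all libraries, and KRT24 to KRT28 had 8, with 3 in all. The window from KRT10 to KRT23 held 9 regions, 3 of them in all libraries. KRT39 and KRT40, with the keratin-associated protein genes beside them, had 12 regions over 390 kb and 3 in all libraries. In that window lay the longest stretch of the type I cluster without a region held by all libraries, 279 kb from 39206051 to 39485444. Parental density was 2.34 ± 0.304 there, 2.79 ± 0.502 in the KRT24 to KRT28 window and 3.70 ± 0.741 in the KRT10 to KRT23 window. The KRT75 to KRT5 window had 2.50, so low density was not particular to the basal and hair windows.

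**Figure D2:**
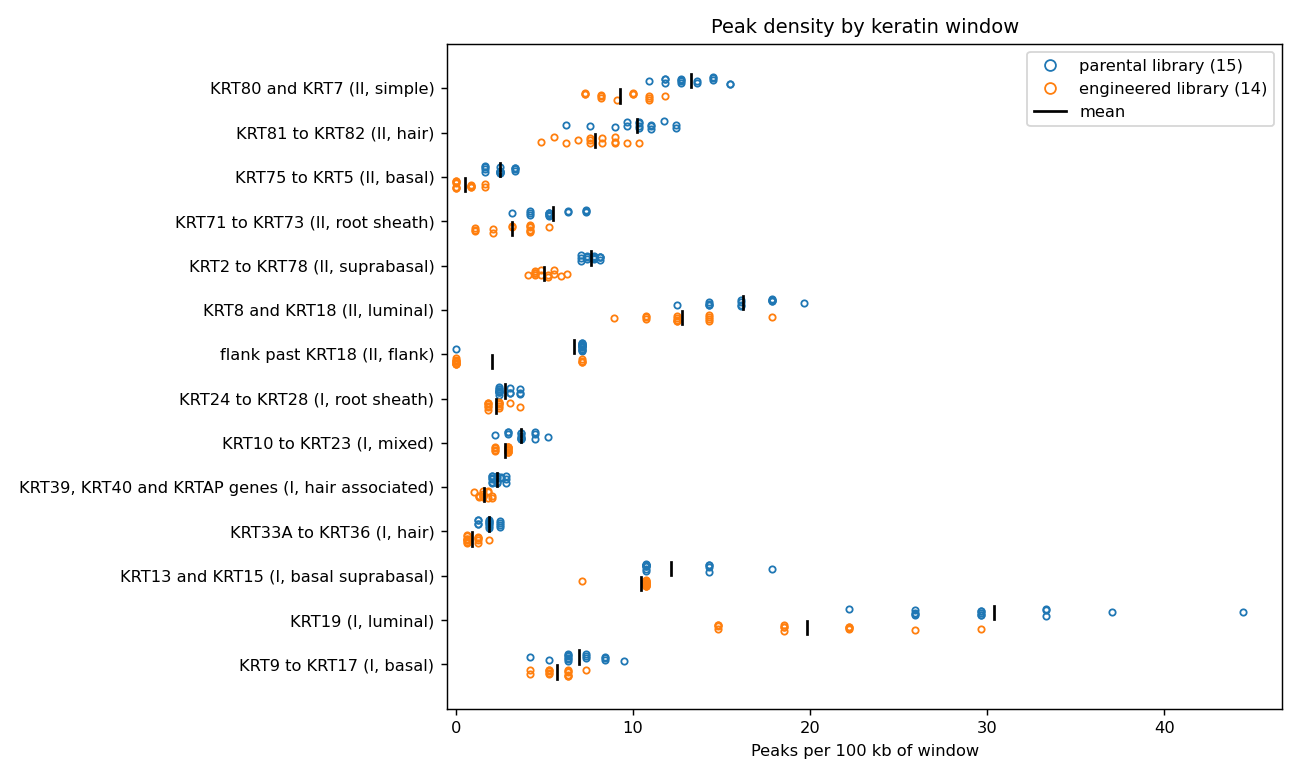
Peaks per 100 kb of window (horizontal axis) for the 14 windows of the keratin clusters (vertical axis, with cluster and class in brackets); each circle is 1 library, blue for parental and orange for engineered, and the black bar is the mean of that line. KRT19 and KRT8 with KRT18 lie farthest right, and KRT75 to KRT5, KRT33A to KRT36 and the window with the KRTAP genes lie near the left edge.

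Every window had a lower mean density in the engineered than in the parental libraries. The engineered lists were also shorter, 62832 to 92658 peaks against 82538 to 98193. Read depth is not known from the peak lists. Per 10000 peaks of the list, the 2 WT-FOXA1 libraries without Dox had 11.3 and 11.7 keratin peaks, inside the parental range of 11.1 to 12.7. Parental and engineered libraries differ in the inserted genes, in Dox (given to 12 of the 14 engineered libraries) and in list length. Between the 2 sets of libraries these cannot be told apart. All comparisons of treatments were therefore made within a line.

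The luminal to basal contrast of parental cells was present with every treatment. Luminal minus basal density was 16.8 ± 3.22 with WX-02-23, 18.1 ± 3.85 with WX-02-43, 16.2 ± 2.30 with PladB at 10 nM and 14.1 ± 1.28 with PladB at 100 nM (n = 3 each), beside 16.4 ± 0.159 with DMSO. The ranges with WX-02-23, WX-02-43 and PladB at 10 nM each enclosed that of DMSO, from 16.3 to 16.6. With PladB at 100 nM all 3 libraries, 12.7 to 15.1, lay below the DMSO libraries, and their lists were shorter too.

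Keratin peak numbers were counted next. The DMSO libraries had 109, 114 and 110 peaks in both clusters together, and the WX-02-23 libraries 110, 106 and 109. The WX-02-43 libraries had 119, 121 and 98. PladB gave 116, 107 and 105 peaks at 10 nM and 105, 97 and 97 at 100 nM. Only the group at 100 nM lay wholly below DMSO. Differences from DMSO in mean peak number were -2.67 for WX-02-23 (exact two-sided permutation p = 0.5), 1.67 for WX-02-43 (exact p = 1), -1.67 for PladB at 10 nM (exact p = 0.7) and -11.3 for PladB at 100 nM (exact p = 0.1, the smallest that 3 against 3 libraries allow). Adjusted over the 5 parental comparisons by the Benjamini-Hochberg method, the exact p-values were 0.875, 1, 0.875 and 0.5, and no difference passed 0.05. The length of the lists moved these values in both directions. As peaks per 10000 of the list, the difference for PladB at 100 nM was 0.0281 (exact p = 1), and its lists were the shorter ones. For WX-02-23 it was -0.451 (exact p = 0.1, unadjusted), with all 3 libraries (11.29 to 11.39) below all 3 DMSO libraries (11.61 to 11.9). With lists cut to equal length WX-02-23 had 5 fewer keratin peaks than DMSO (104 against 109, exact p = 0.1, unadjusted). WX-02-23 against the 12 other parental libraries differed by 0.167 peaks (exact permutation p = 1 over 455 arrangements).

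**Figure D3:**
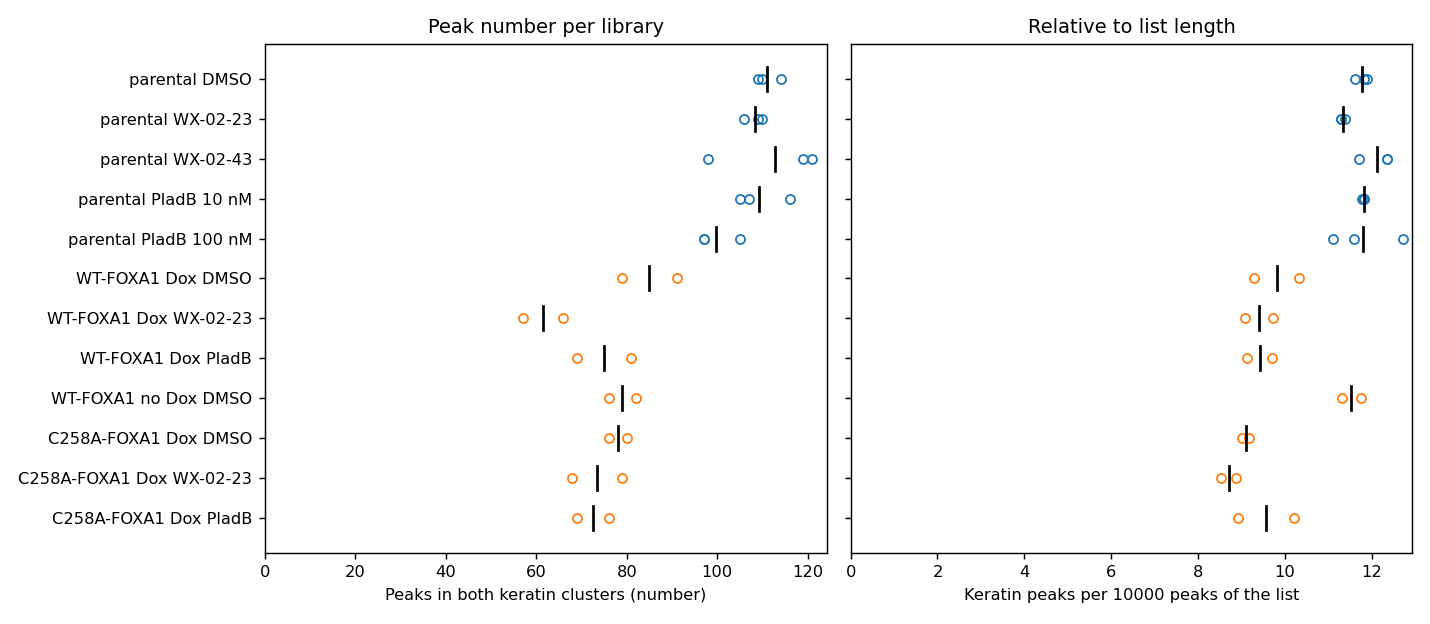
Keratin peaks in each of the 29 libraries, as a number in both clusters and per 10000 peaks of the library's list, by group; each circle is 1 library, blue for parental and orange for engineered, and the black bar is the group mean. The 12 engineered libraries with Dox have the lowest values per 10000, from 8.53 to 10.3.

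Among single regions, 1 keratin region was gained with WX-02-23 in parental cells. Gained means a peak in all treated libraries and none of the controls, and lost means the reverse. With WX-02-23 against DMSO, 1 of 139 keratin regions was gained (background: 1.82% of all regions tested) and 3 were lost (background: 1.18%). The keratin share gained was 0.719% and the share lost 2.16%, counts too small to set apart from the background. Against all 12 other parental libraries, 1 of 153 was gained (background: 0.644%) and 0 were lost (background: 0.123%).

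The gained region was chr12:52633789-52634203, in the window of KRT80 and KRT7. KRT7 pairs with type I keratins in simple epithelium of ducts and glands. Folds with WX-02-23 were 4.58, 6.52 and 6.43 (mean 5.84 ± 1.10, SD, n = 3), at the 32.6, 61.2 and 59.0 percentiles of those lists. No other parental library had a peak there. The same region was open in every engineered library with Dox, whichever FOXA1 was expressed and whichever compound was added, and in neither library without Dox. In the WT-FOXA1 line the folds were 8.11 and 8.08 with DMSO, 8.06 and 6.15 with WX-02-23, and 5.51 and 7.22 with PladB. In the C258A-FOXA1 line they were 6.96 and 7.45 with DMSO, 6.34 and 9.43 with WX-02-23, and 8.30 and 9.14 with PladB. The 2 sets of libraries that held it were thus the parental cells with WX-02-23 and the engineered cells with Dox. Its call as gained was kept with peaks of q 1e-05 or lower, with lists of equal length and with 50% of the region covered.

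That pattern was counted over the genome. A gain in parental WX-02-23 against all 12 other parental libraries, together with a peak in both WT-FOXA1 DMSO libraries with Dox and in none without, was met by 1 of 153 keratin regions and by 110 of 135804 regions in all (0.081%). A peak in all 12 Dox libraries and in no library without Dox was found at 1 of 108 keratin regions held by any engineered library, against 2.65% of all regions. With 1 keratin region, no difference from either share can be read.

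**Figure D4:**
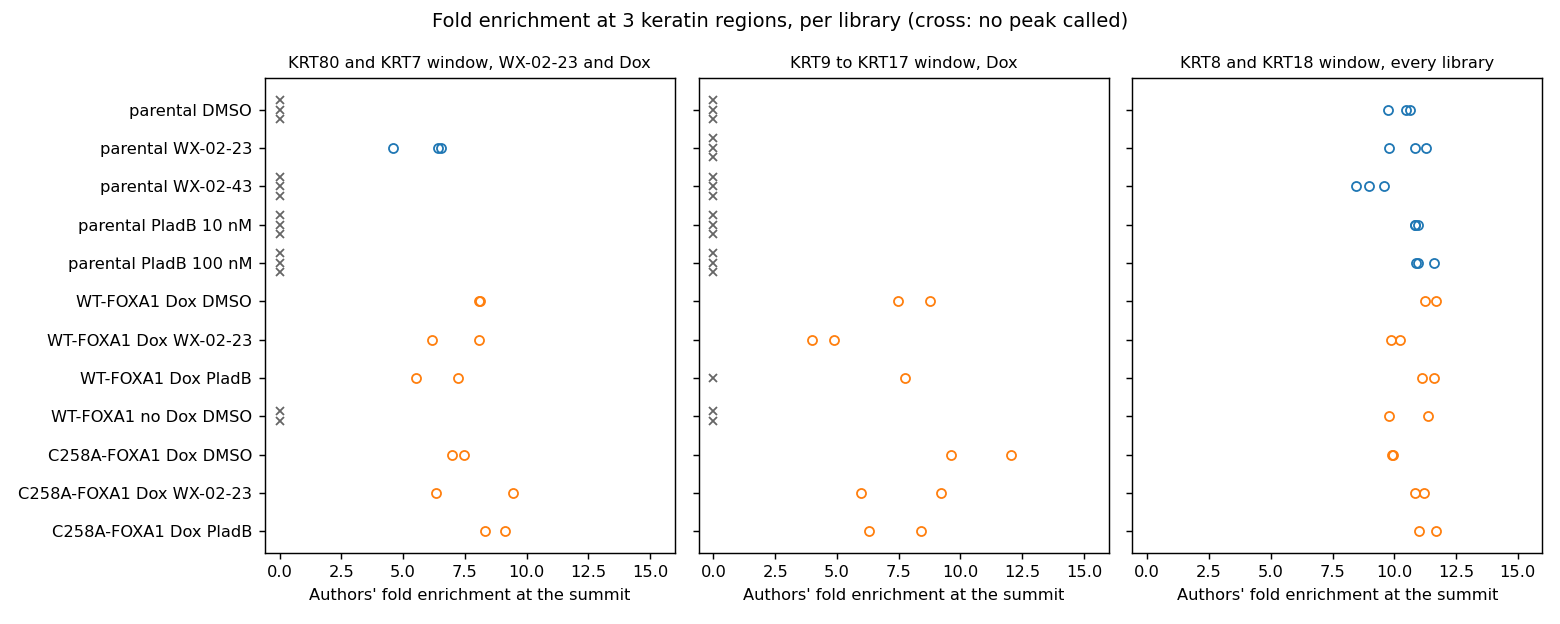
Fold enrichment of the authors' peak caller (horizontal axis) in each library, by group (vertical axis), at chr12:52633789-52634203 (left), chr17:39760490-39761071 (middle) and chr12:53342552-53344116 (right); a circle is 1 library with a peak, blue for parental and orange for engineered, and a cross at 0 marks a library without one. On the left the parental WX-02-23 libraries and all 12 Dox libraries hold a peak, in the middle 11 of the 12 Dox libraries and no other, and on the right every library.

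The 3 regions lost with WX-02-23 were weak peaks. The first, chr12:53289090-53289506, lies just before the KRT8 and KRT18 window, with DMSO folds of 4.69, 5.46 and 6.04. It was held by 2 of 3 libraries in each of the WX-02-43 and both PladB groups. The second, chr17:39677956-39678442, had DMSO folds of 3.38, 3.45 and 4.65. It lies across the bound between the KRT13 and KRT15 window and the KRT19 window, and its midpoint put it in the latter. It had a peak in 3 of 3 WX-02-43, 1 of 3 PladB 10 nM and 0 of 3 PladB 100 nM libraries. The third, chr17:38843369-38843686, in the window of the root sheath keratins KRT24 to KRT28, had DMSO folds of 4.25, 4.50 and 7.81. It was held by all WX-02-43 and PladB 10 nM libraries and by 2 of 3 PladB 100 nM libraries, so WX-02-23 was the only parental group without it. All 3 lost the call when a peak had to cover 50% of the region, and the third also with peaks of q 1e-05 or lower and with lists of equal length.

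The 2 stereoprobes were compared at the same dose and time. WX-02-23 libraries had 4.33 fewer keratin peaks than WX-02-43 libraries on average (exact two-sided permutation p = 0.6, adjusted over 5 comparisons 0.875). The exact 90% interval of that difference ran from -15 to 12 peaks, so a difference of either sign is within the measurement. Per 10000 peaks of the list, all 3 WX-02-23 libraries (11.3 to 11.4) lay below all 3 WX-02-43 libraries (11.7 to 12.3), a difference of -0.801 (exact p = 0.1, unadjusted, the smallest possible). At single regions, WX-02-23 against WX-02-43 gave 1 gained region of 139 (background: 1.6%) and 3 lost (background: 1.07%). The gained region was again chr12:52633789-52634203, with 3 of 3 against 0 of 3 libraries. The lost ones were chr17:38843369-38843686 (WX-02-43 folds 6.61, 6.14 and 5.60), chr12:53019769-53020130 in the KRT71 to KRT73 window (4.58, 4.78 and 3.68) and chr17:39677956-39678442 on the bound of the KRT19 window (2.73, 3.23 and 3.14). Against DMSO, WX-02-43 itself gained 0 of 138 keratin regions (background: 0.34%) and lost 0 (background: 0.369%). These comparisons share libraries, so the calls for WX-02-23 against DMSO and against WX-02-43 are not independent.

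With PladB, 1 keratin region was gained at the lower dose and 3 were lost at the higher one. At 10 nM, 1 of 130 keratin regions was gained (background: 0.408%) and 0 were lost (background: 0.556%). The gained region, chr12:53314830-53315078, lies inside the KRT8 and KRT18 window, with folds of 4.88, 5.64 and 6.07. No DMSO, WX-02-23 or engineered library held it. It had a peak in 1 of 3 PladB 100 nM libraries (fold 5.20) and in 1 of 3 WX-02-43 libraries (fold 3.96). The call held with peaks of q 1e-05 or lower, with equal lists and with 50% coverage. At 100 nM, 0 of 133 were gained (background: 0.187%) and 3 were lost (background: 1.68%). These were chr17:39677956-39678442 on the bound of the KRT19 window, chr17:39573805-39574106 among the hair keratins KRT33A to KRT36 (DMSO folds 6.91, 5.37 and 6.25) and chr12:53289631-53290520 at the edge of the KRT8 and KRT18 window (5.45, 4.0 and 4.56). With lists of equal length only chr17:39677956-39678442 of the 3 stayed called.

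With induction of WT-FOXA1, 8 keratin regions were gained and 1 was lost. With Dox, DMSO libraries of the WT-FOXA1 line had 91 and 79 keratin peaks, and without Dox 82 and 76. As peaks per 10000 of the list the order turned, with 10.3 and 9.29 with Dox and 11.7 and 11.3 without. An exact permutation test of 2 against 2 libraries cannot go below p = 0.333, so none was read for the engineered comparisons. Of 99 keratin regions, 8 were gained (8.08%, background: 13.2%) and 1 was lost (1.01%, background: 1.1%). The keratin share gained lay below that of all regions, but it rests on 8 regions and the difference was not tested.

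The gained regions lay in 5 windows. The one of lowest rank, chr17:39683741-39684312 (mean fold 3.56), lay in the luminal KRT19 window. None lay in the KRT8 and KRT18 or the KRT75 to KRT5 window. These hold 10 and 7 regions, too few to set a count of 0 apart from the keratin share gained, 8.08%, or the background, 13.2%. In rank order by the authors' p-value the gained regions began with chr12:52633789-52634203 (above). Next came chr17:39760490-39761071 in the KRT9 to KRT17 window, with folds of 8.78 and 7.48. It was held in 11 of 12 Dox libraries, with C258A-FOXA1 DMSO folds of 12.1 and 9.61, and was absent from all parental and both no-Dox libraries. The third was chr17:39317711-39318433 among the keratin-associated protein genes, with folds of 9.62 and 5.42. It too was held in 11 of 12 Dox libraries and by no parental or no-Dox library. Its C258A-FOXA1 DMSO folds were 8.41 and 8.02. With lists of equal length, chr12:52633789-52634203 and chr17:39760490-39761071 were the only 2 of the 8 still called. The lost region was chr12:52579268-52579747 in the KRT80 and KRT7 window, with no-Dox folds of 4.50 and 5.33. All 15 parental libraries held it. Both DMSO libraries with Dox of each engineered line, and neither library without Dox, held 4 of 108 keratin regions (3.7%, background: 6.69%).

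In the WT-FOXA1 line with Dox, the WX-02-23 libraries had 66 and 57 keratin peaks and the DMSO libraries 91 and 79. Their lists were shorter too, 67815 and 62832 against 88140 and 85009 peaks, and per 10000 the values were 9.73 and 9.07 against 10.3 and 9.29. Of 91 keratin regions, 0 were gained (background: 1.31%) and 6 were lost (6.59%, background: 11.7%). The lost ones with the highest rank were chr12:53109100-53109749 and chr12:53084874-53085314 in the KRT2 to KRT78 window and chr12:53310040-53310489 in the KRT8 and KRT18 window. At the first the DMSO folds were 6.98 and 7.32, and all 15 parental libraries held a peak, the 3 with WX-02-23 included. At the KRT8 and KRT18 region the DMSO folds were 6.04 and 5.50, and the parental WX-02-23 libraries also kept a peak (folds 4.61, 7.20 and 5.11). The parental cells with WX-02-23 thus kept both. With lists of equal length 1 region was lost, chr12:53109100-53109749.

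In the C258A-FOXA1 line, WX-02-23 gave 68 and 79 keratin peaks against 76 and 80 with DMSO. Of 88 regions, 0 were gained (background: 2.37%) and 3 lost (3.41%, background: 2.55%). These were chr12:52939896-52940255 in the KRT71 to KRT73 window (DMSO folds 6.41 and 5.44), chr12:52569819-52570112 in the KRT80 and KRT7 window and chr12:53301513-53301895 in the KRT8 and KRT18 window (2.95 and 3.06). The mean change with WX-02-23 was -4.5 peaks here and -23.5 with WT-FOXA1. Its difference between lines, -19 peaks, had an exact permutation p of 0.111 over 36 arrangements, of which the smallest possible is 0.0556, so it did not pass 0.05. With the 8 lists cut to the length of the shortest, the difference between lines was -8 (exact p = 0.333), from a change of -5.5 with WT-FOXA1 and 2.5 with C258A-FOXA1.

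PladB at 100 nM gave 69 and 81 keratin peaks with WT-FOXA1 and 76 and 69 with C258A-FOXA1, both ranges overlapping or touching those of the DMSO libraries. In the WT-FOXA1 line, 1 of 95 regions was gained (background: 0.915%) and 2 were lost (2.11%, background: 3.05%). The gained region was chr12:52579268-52579747, the one lost with Dox, with folds of 4.93 and 6.23. Both calls rest on the same 2 DMSO libraries with Dox, which had no peak there, so they are not independent. The gain was not called with 50% coverage. The loss with Dox was not called with the stricter q, with equal lists or with 50% coverage. In the C258A-FOXA1 line, 0 of 87 were gained (background: 0.806%) and 5 were lost (5.75%, background: 4.67%). The lost ones with the highest rank were chr12:52939896-52940255, chr17:39573805-39574106 (DMSO folds 5.72 and 5.90) and chr12:52591457-52591837 (4.18 and 5.57). The region chr12:52939896-52940255 was also among those lost with WX-02-23 in this line, a comparison that shares the DMSO libraries.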

How the data were processed

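ATAC-seq peak lists of 29 libraries were analysed as deposited, 1 list per library. The submitters' processing notes name Bowtie2, MACS2 and build hg19, with versions and options not given in the sources used here. Each peak carries the authors' score, fold enrichment over local background (a ratio), −log10 p-value and −log10 q-value, as deposited. The lowest deposited −log10 q was 2, a q-value of 0.01. The authors' fold and p-values were used only to describe and rank peaks within a list. Read depth is unknown, and a region without a peak may be open below detection.

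Overlapping or touching peaks were merged over libraries, and a library held a region by an overlap of at least 1 bp. Peaks were assigned to a window by their midpoint. Peak numbers were compared with exact permutation tests, two-sided, adjusted by Benjamini-Hochberg. Gained and lost counts carry no test and are set beside the percentage of all regions called. The counting was tested on simulated data. Regions were named by a rule: the strongest in each window by mean percentile of the authors' p-value, up to 5 per direction in each parental comparison, and up to 3 in each engineered comparison. Members, windows and lists were chosen with earlier results of these data known. The gene order of the windows was checked against the RefSeq table of GRCh38: 27 of 27 type I and 25 of 27 type II genes held the same place. Alternatives were a stricter q, equal list lengths, 50% coverage, other window bounds and classes, peaks per 10000, a replicate block and leaving out each library. Python 3.11.15, numpy 2.4.6, pandas 2.3.3 and scipy 1.17.1 were used.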

Additional observations from a re-analysis of the deposited data

How the results depend on the processing

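The luminal minus basal contrast in parental DMSO libraries, 16.4 peaks per 100 kb as reported, was 16.2 with peaks of q 1e-05 or lower and 16.1 with equal lists. It was 14.4 with the KRT8 and KRT18 window taken to the cluster's end. After seeing the data, inner bounds moved up or down by 5 kb were added and gave 15.6 and 15.6, and the KRT13 and KRT15 window counted as basal gave 15.7. Luminal minus hair, 14.8 as reported, was 12.8 with the window to the cluster's end and 13.2 with bounds moved up.

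Keratin peak numbers changed direction under several settings, and the cause was not tested. With peaks of q 1e-05 or lower WX-02-43 differed from DMSO by 0 peaks and PladB 10 nM by 3. With equal lists it was 0.333 for PladB 100 nM (parental), -6 for Dox, 3.5 for PladB in the C258A-FOXA1 line and -2.83 for WX-02-23 against the other 12. Per 10000 peaks it was 0.0351 and 0.0281 for PladB 10 and 100 nM, -1.72 for Dox and 0.46 for PladB in the C258A-FOXA1 line. The difference between WX-02-23 and DMSO in parental cells was -5 with equal lists and -0.451 per 10000. Its exact permutation p was 0.1 in each setting, the smallest possible, and 0.5 as reported. Equal lists reduced the difference between lines from -19 to -8 (exact permutation p = 0.333). Leaving out each library gave -3.67 to -1.17 (WX-02-23), -2.5 to 9 (WX-02-43), -5 to 0.5 (PladB 10 nM), -14 to -9.83 (PladB 100 nM) and -11.7 to -0.167 (WX-02-23 against WX-02-43). It gave -29.5 to -17.5 (WX-02-23) and -16 to -4 (PladB) with WT-FOXA1, 0 to 12 for Dox, and -10 to 1 (WX-02-23) and -9 to -2 (PladB) with C258A-FOXA1. For WX-02-23 against the other 12 it gave -0.848 to 1.33, and for the difference between lines -25 to -13.

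Region counts were small and moved by more than 1.5 times, or to or from 0, in 29 of 60 settings. With peaks of q 1e-05 or lower, gained counts were 2 (WX-02-23, parental), 5 (Dox), 1 (WX-02-23, C258A-FOXA1) and 1 (PladB, C258A-FOXA1), and lost counts 1 (WX-02-43), 2 (PladB 10 nM), 1 (WX-02-23 against WX-02-43), 10 (WX-02-23, WT-FOXA1), 0 (Dox) and 3 (PladB, C258A-FOXA1). With equal lists, gained counts were 1 (WX-02-43), 1 (WX-02-23, WT-FOXA1), 2 (Dox), 1 (WX-02-23, C258A-FOXA1) and 2 (PladB, C258A-FOXA1), and lost counts 1 (PladB 10 nM), 1 (PladB 100 nM, parental), 1 (WX-02-23, WT-FOXA1), 0 (PladB, WT-FOXA1), 0 (Dox) and 2 (PladB, C258A-FOXA1). With 50% coverage, gained counts were 2 (PladB 10 nM), 0 (PladB, WT-FOXA1) and 1 (WX-02-23, C258A-FOXA1), and lost counts 0 (WX-02-23, parental), 1 (PladB 10 nM), 1 (WX-02-23 against WX-02-43), 0 (Dox) and 2 (PladB, C258A-FOXA1).

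Leaving out each library gave, gained and then lost, 1 to 3 and 3 to 6 (WX-02-23, parental), 0 to 1 and 0 to 1 (WX-02-43), 1 to 2 and 0 to 1 (PladB 10 nM), 0 to 1 and 3 to 5 (PladB 100 nM), and 1 to 2 and 3 to 6 (WX-02-23 against WX-02-43). With WT-FOXA1 it gave 0 to 1 and 9 to 19 (WX-02-23), 1 to 4 and 3 to 10 (PladB), and 9 to 14 and 2 to 7 (Dox). With C258A-FOXA1 it gave 2 to 5 and 3 to 9 (WX-02-23) and 0 to 3 and 6 to 11 (PladB). A group left with fewer libraries meets the rule of a peak in all or none more easily.

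Replicate numbers do not pair the libraries: same-numbered libraries had deviations correlated by -0.0256 to 0.0194. A replicate block cannot move a difference of means with equal groups, such as -2.67 for WX-02-23 in parental cells. Within the blocks its exact permutation p was 0.75, and 0.25 for PladB 100 nM, the smallest that 3 pairs allow. Peak lists give no depth, so a missing peak is a region not detected.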

Other observations

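The flank past KRT18, 14 kb long, held 2 regions with opposite distributions over the lines. Both were chosen for mention after their values were seen, the first also by the rule on the strongest region of a window. At chr12:53352179-53352479, 14 of 15 parental libraries and 0 of 14 engineered libraries held a peak, with parental folds of 4.45 to 7.65. At chr12:53348566-53348890, 4 of the 6 C258A-FOXA1 libraries held a peak, 2 of them with DMSO, 1 with WX-02-23 and 1 with PladB, and no other library did. Neither was tested.

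Within the KRT2 to KRT78 window the strongest region, chr12:53273062-53274066, lies toward the KRT8 and KRT18 end. All 29 libraries held it, with folds of 8.13 to 11.2 in parental and 8.43 to 10.5 in engineered libraries.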
